A study of Mus musculus with 12 samples.

Results

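Of the 38720 genes listed for RNA of the newborn mouse retina, 9 were chosen by their log2 fold changes between mKO and WT mice, which were of like size in retinal ganglion cells (RGCs) and in the rest of the retinal cells (non-RGCs). They are Glcci1, Wdfy1, Ppp2r3d, Gm9825, Vcp-rs, Gm12346, 4930539J05Rik, 2610035F20Rik and A430106G13Rik, and all 9 were found in both tables and passed the filter on low values in every comparison. The genes were selected on the differences between mKO and WT mice, so these are described here with no test. In mKO mice (Math5-Cre;Ezh2 flox/flox, labelled Ezh2 Knockout) a Cre knock-in driven by the Math5 (Atoh7) promoter cuts out the exons for the SET domain of Ezh2, which lie between loxP sites on both alleles. The other mice are labelled wild type. The study describes the controls of its RNA-seq of RGCs both as littermates and as WT, and its methods take floxed littermates as controls unless another control is named, so the WT mice may carry the floxed Ezh2 alleles without Cre. All 12 libraries are labelled C57/BL6 retina at P0. Cells were pulled out of dissociated retinas with magnetic beads against Thy-1 (CD90), and both the bound cells (RGCs) and the remainder (non-RGCs) were sequenced, with 3 libraries for each of 4 groups from separate RNA extractions. Math5 is transcribed in a subset of retinal progenitors, so Cre acts in only some of the cells of either fraction. For adult Math5-Cre mice the paper cites a far larger share of RGCs than of all retinal cells with transgene expression. It proposes that deletion in only part of the RGCs limits how large a fall could be detected there. The poly-A libraries held between 7139633 and 13014004 reads on genes.

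Ezh2 is the catalytic subunit of a polycomb complex that methylates histone H3 on lysine and is known for keeping genes silent. The 9 genes were chosen by their values, not by function. Glcci1, Wdfy1 and Ppp2r3d code for proteins. Gm9825, Vcp-rs and Gm12346 are processed pseudogenes, copies that arose when a messenger RNA was reverse transcribed and inserted elsewhere in the genome. 4930539J05Rik, 2610035F20Rik and A430106G13Rik are non-coding RNAs.

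The 3 processed pseudogenes are nearly identical to the genes they were copied from, and their sequences show how few bases tell a read of the copy from a read of the parent. Gm9825 (chr6:7982541-7983383, minus strand, GRCm38, 843 bases) matched the coding sequence of Rnps1 with 5 substitutions, an identity of 99.4%. Vcp-rs (chrX:104345829-104348234, minus strand, 2406 bases) matched Vcp with 8 substitutions and 15 bases in gaps (99.0%). Gm12346 (chr11:77293444-77295898, plus strand, 2255 bases of exon) matched Hsp90aa1 with 11 substitutions and 1 gap (99.5%). The methods name a 75-cycle flowcell and also a shorter single-read format, so the read length is not settled. A stretch of 75 bases of the copy held a difference from the parent at 41.7% of positions in Gm9825, 22.6% in Vcp-rs and 33.9% in Gm12346. Shorter reads would hold a difference less often. Reads from the other positions fit both loci equally, and the authors kept 1 primary alignment of each. For each pair the 90 bases of coding sequence with the most differences are printed, with the base that differs in capitals. Positions are counted from 1 at the 5′ end of the copy, and a substitution gives the parent's base first.
Gm9825: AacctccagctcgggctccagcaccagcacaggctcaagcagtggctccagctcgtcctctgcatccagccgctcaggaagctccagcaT
Rnps1: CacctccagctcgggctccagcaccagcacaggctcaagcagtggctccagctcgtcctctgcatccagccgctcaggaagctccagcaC
Vcp-rs: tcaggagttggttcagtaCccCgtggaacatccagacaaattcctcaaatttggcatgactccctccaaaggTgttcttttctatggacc
Vcp: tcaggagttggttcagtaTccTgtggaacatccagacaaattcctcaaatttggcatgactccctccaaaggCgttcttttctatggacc
Gm12346: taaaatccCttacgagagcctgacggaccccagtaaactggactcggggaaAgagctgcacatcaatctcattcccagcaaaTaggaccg
Hsp90aa1: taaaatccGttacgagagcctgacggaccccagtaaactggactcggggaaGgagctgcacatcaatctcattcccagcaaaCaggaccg
The stretch of Gm9825 lies at chr6:7983124-7983213 and holds C171A and C260T. That of Vcp-rs lies at chrX:104346679-104346768 and holds T1485C, T1488C and C1539T. The stretch of Gm12346 lies at chr11:77293666-77293755 and holds G231C, G274A and C305T.

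A430106G13Rik (chr1:137966531-137969918, plus strand) is annotated as a long intergenic non-coding RNA of 1 exon and 3388 bases that holds the whole hairpin of Mir181b-1. Its start lies within the hairpin of Mir181a-1, of which it covers the last 11 bases and neither mature strand. MicroRNAs of the miR-181 family silence messenger RNAs that pair with bases 2 to 8 of the mature strand, the seed. The mature 5p strands of both hairpins, as RefSeq gives them on GRCm38.p6, are printed with the seed in capitals, since they share it, and that of miR-181a lies outside A430106G13Rik.
mmu-miR-181a-5p: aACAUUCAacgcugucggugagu
mmu-miR-181b-5p: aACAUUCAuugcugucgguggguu
Poly-A RNA-seq does not measure mature microRNAs. Mir181b-1 was listed at 0 in all 4 groups, and the mean of Mir181a-1 was at most 0.35 normalized reads in any group, and the values given here are those counted for A430106G13Rik, not for either hairpin.

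Values of the 9 genes are given as normalized reads, which are the reads of a library divided by 1 size factor taken over all 12 libraries together, so that levels can be set side by side in both fractions. Libraries carry no replicate number and are listed by falling depth within each group. Log2 fold changes of mKO over WT are from limma on log2(normalized reads + 1) within each fraction, ± SE, and understate the change of genes with few reads. The RNA of a fraction is a bulk sample, so fewer cells of a type and less RNA per cell cannot be told apart. In RGCs 37.5% of the 16085 genes tested differed between mKO and WT mice at an adjusted p-value under 0.05, and 10.6% of 15326 did in non-RGCs. The mKO libraries all lay above the WT libraries in both fractions for 10.2% of the 14894 genes tested in both, and all below for 13.3%. In RGCs alone these shares were 24.8% and 28.2% of all genes, and in non-RGCs 17.5% and 19.2%. Each of the 9 genes is among these, as its choice made likely, and nothing is read from that count.

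Glcci1 (chr6:8509600-8597548, plus strand, 8 exons in the longest transcript) codes for glucocorticoid-induced transcript 1, named for its rise in cells given glucocorticoids. It was lower in mKO mice in both fractions. WT RGCs had 330.0, 422 and 487 normalized reads, and mKO RGCs 145, 141 and 158. WT non-RGCs had 632, 656 and 812, and mKO non-RGCs 245, 140.1 and 93.8. The genotypes did not overlap in either fraction, and the mKO non-RGC libraries spanned the widest ratio of any group, with the deepest library highest. The log2 fold change was -1.47 ± 0.16 in RGCs and -2.24 ± 0.30 in non-RGCs, and leaving out 1 library at a time gave -2.60 to -1.92 in non-RGCs. Other annotated loci share bases with it. Gm45062, a read-through gene on the same strand, covers 69.8% of the exon bases of Glcci1 but was not among the genes counted under that name. The antisense pseudogene Gm16042, listed at 0 in all 4 groups, covers 16.1%. The kit did not mark strand.

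Wdfy1 (chr1:79702262-79776143, minus strand, 12 exons) codes for an adaptor with WD repeats and a FYVE domain that binds phosphatidylinositol 3-phosphate on early endosomes and links Toll-like receptors 3 and 4 to their signalling adaptor. It was higher in mKO mice and the most abundant of the 9 genes there. WT RGCs had 676, 650.4 and 484 normalized reads, and mKO RGCs had 1494, 1532 and 1561. Values were 551, 483 and 519 in WT non-RGCs and 1436, 1281 and 1507 in mKO non-RGCs. The lowest mKO library of either fraction had 1281 and the highest WT library 676. The log2 fold change was 1.34 ± 0.11 in RGCs and 1.43 ± 0.13 in non-RGCs.

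Ppp2r3d (chr9:124422622-124476898, minus strand) codes for a regulatory subunit of protein phosphatase 2A (PP2A), which sets the substrates and place of the catalytic subunit. It was lower in mKO mice, by nearly the same amount in both fractions. WT RGCs had 269, 251 and 284 normalized reads and mKO RGCs 127, 131 and 133. In non-RGCs the WT libraries had 309.9, 272 and 312 and the mKO libraries 136, 131 and 167. The 6 libraries of each genotype formed 2 ranges that did not overlap, whichever fraction they came from. On the log2 scale the change was -1.05 ± 0.11 in RGCs and -1.06 ± 0.18 in non-RGCs.

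Gm9825 had the largest difference of the 9 genes. It is a copy of Rnps1, which codes for an RNA-binding protein of the exon junction complex. WT RGCs had 6.96, 11.8 and 10.97 normalized reads, from 7, 11 and 10 reads. The mKO RGCs had 102, 137 and 119. WT non-RGCs had 3.66, 45.3 and 20.5, and mKO non-RGCs had 141, 169.6 and 214. Its level in WT RGCs was near the mean of 10 that the filter asked of either group, and the 3 WT non-RGC libraries spanned 4 to 46 reads. Its log2 fold change over WT was 3.48 ± 0.26 in RGCs and 3.36 ± 0.68 in non-RGCs, where it became 2.45 without the deepest WT library and 4.10 without the second deepest.

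Vcp-rs is a copy of Vcp, the gene of an ATPase that pulls ubiquitinated proteins out of complexes and membranes. WT RGCs had 17.9, 35.4 and 28.5 normalized reads, and mKO RGCs had 90.4, 75.7 and 62.0. WT non-RGCs held 34.7, 35.5 and 31.2, and mKO non-RGCs held 67.6, 74.0 and 80.8. Its log2 fold change was 1.47 ± 0.29 in RGCs and 1.09 ± 0.25 in non-RGCs. Gm12346 is a copy of Hsp90aa1, the stress-inducible cytosolic Hsp90 chaperone, and lies within an intron of Ssh2. WT RGCs had 18.9, 22.5 and 21.9 normalized reads, against 74.0, 81.1 and 81.1 in mKO RGCs. WT non-RGCs had 30.2, 33.5 and 18.3, against 106, 108 and 169 in mKO non-RGCs. This gave a log2 fold change of 1.84 ± 0.19 in RGCs and 2.18 ± 0.32 in non-RGCs. Both copies were higher in every mKO library than in any WT library of either fraction.

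4930539J05Rik (chr3:135436209-135438665, minus strand) is an antisense RNA whose exons overlap 198 bases of the exons of Ube2d3, the gene of a ubiquitin-conjugating enzyme. WT RGCs had 173, 158 and 150.2 normalized reads, and mKO RGCs 55.1, 68.5 and 56.5. In non-RGCs the WT libraries had 172, 188 and 156 and the mKO libraries 75.7, 74.0 and 63.5. Its log2 fold change was -1.42 ± 0.15 in RGCs and -1.28 ± 0.21 in non-RGCs. The overlap makes up 11.9% of its exon bases, and without strand the reads there cannot be assigned to either gene. 2610035F20Rik (chr14:122470284-122475199, minus strand) lies 0.236 kb from Zic2 and 4.61 kb from Zic5, genes of zinc finger transcription factors. WT RGCs had 167, 159 and 251 normalized reads, and mKO RGCs 93.0, 89.2 and 92.1. WT non-RGCs had 386, 293 and 361, and mKO non-RGCs 219.7, 221 and 170.3. Its log2 fold change was -1.05 ± 0.21 in RGCs and -0.78 ± 0.19 in non-RGCs. Within a fraction its genotypes did not overlap, but the mKO non-RGC libraries lay within the range of the WT RGC libraries.

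A430106G13Rik, whose exon holds the hairpin of Mir181b-1, was higher in mKO mice. WT RGCs had 61.6, 31.1 and 27.4 normalized reads, and mKO RGCs had 124, 119 and 207. WT non-RGCs had 86.8, 70.0 and 60.3, and mKO non-RGCs had 214, 171 and 144. A single library stood above the other two in WT RGCs (the deepest) and in mKO RGCs (the shallowest). As log2 fold change the difference was 1.91 ± 0.35 in RGCs and 1.26 ± 0.24 in non-RGCs.

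**Figure D1:**
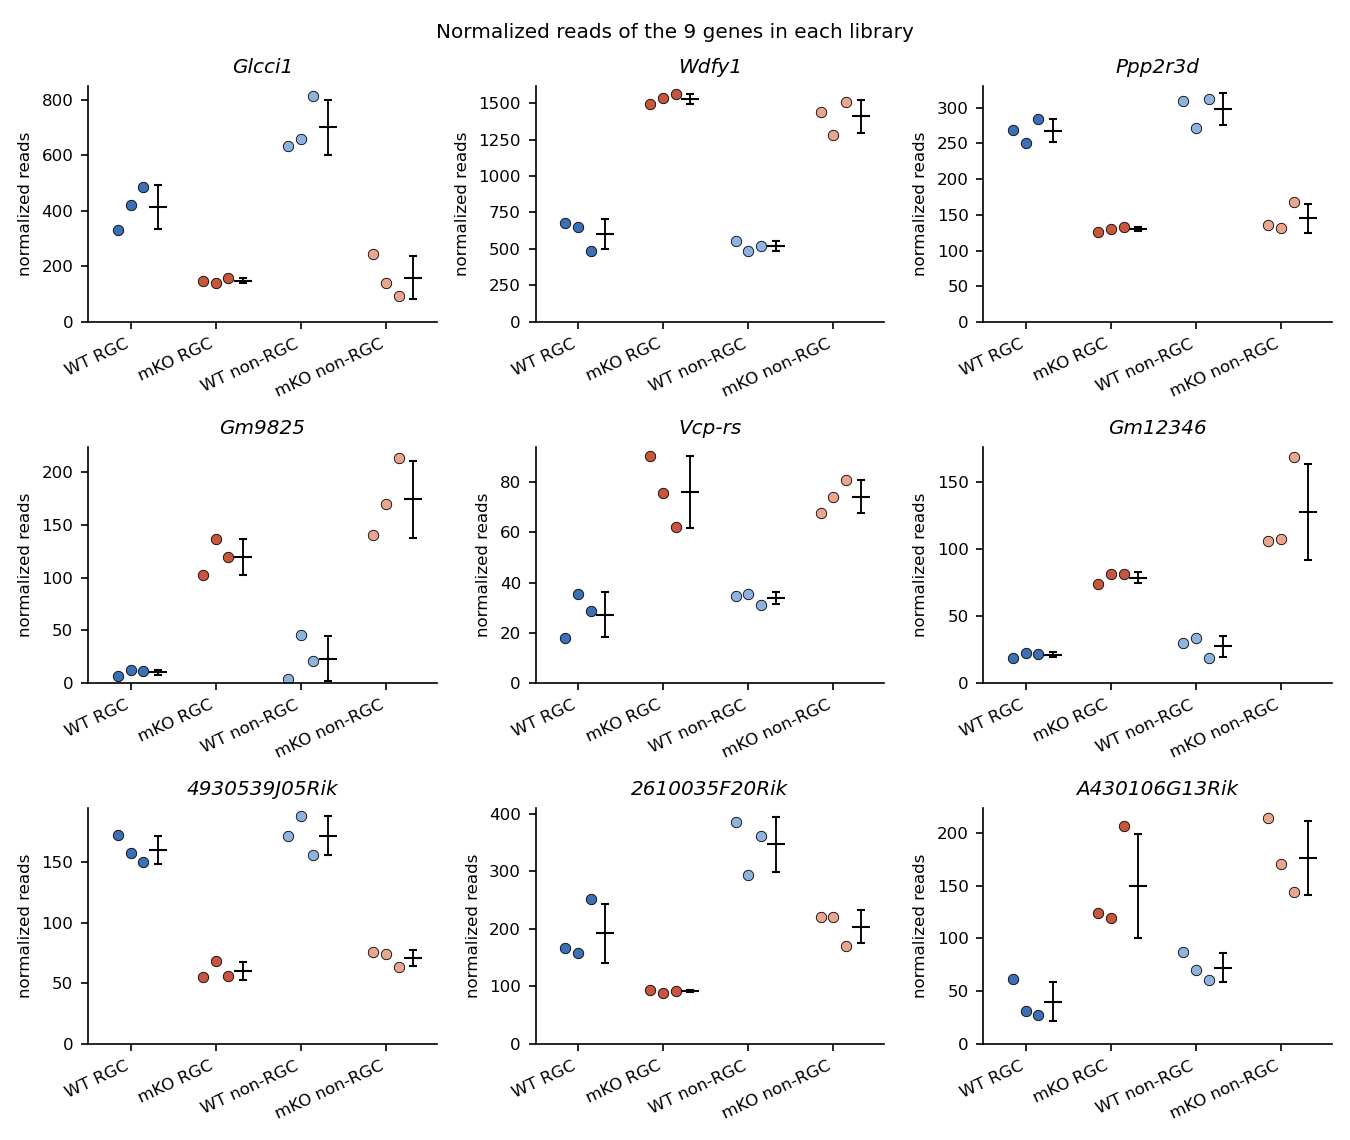
Normalized reads (y axis, from 0) of each of the 9 genes in the 12 libraries, which are the points, with the mean ± SD of the 3 libraries of a group beside them. Wdfy1, Gm9825, Vcp-rs, Gm12346 and A430106G13Rik are higher in the mKO libraries of both fractions, and Glcci1, Ppp2r3d, 4930539J05Rik and 2610035F20Rik are lower.

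Per 1 kb of exon, the order of the 9 genes differed between the genotypes. In WT RGCs the mean level per kb was highest for 4930539J05Rik (96.1 normalized reads per kb), Wdfy1 (93.0) and 2610035F20Rik (81.7), followed by Ppp2r3d (59.1) and Glcci1 (53.3), while the other 4 lay between 9.36 and 11.8. In mKO RGCs Wdfy1 (236) and Gm9825 (142) stood above the rest, which lay between 19.1 for Glcci1 and 44.3 for A430106G13Rik. In non-RGCs 2610035F20Rik (147) was highest per kb in WT mice and Wdfy1 (217) and Gm9825 (207) in mKO mice. Glcci1 went from the third highest level per kb in WT non-RGCs (90.3) to the lowest in mKO non-RGCs (20.6).

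The differences in the 2 fractions are alike by choice, and how alike they are varied among the 9 genes. The log2 fold change in RGCs minus that in non-RGCs was 0.01 for Ppp2r3d, -0.08 for Wdfy1, 0.12 for Gm9825 and -0.14 for 4930539J05Rik. It was -0.27 for 2610035F20Rik, -0.33 for Gm12346 and 0.38 for Vcp-rs. It was furthest from 0 for A430106G13Rik (0.66) and Glcci1 (0.77). The median of its absolute value was 0.27 over the 9 genes and 0.16 over the 1168 genes that were called in the same direction in both fractions. Most of the 1168 changed less than the 9 did, so these medians do not show which set is more alike. Of those 1168 genes, 401 were higher (2.69% of the genes tested in both) and 767 lower (5.15%), and they made up 19.4% of the calls in RGCs and 71.8% of those in non-RGCs. A change of at least 2-fold in both fractions was seen for 182 of them, of which 8 are among the 9 genes, and 2610035F20Rik is not. An absolute log2 fold change of at least 1 was found for 5.38% of all genes in RGCs and 7.2% in non-RGCs.

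**Figure D2:**
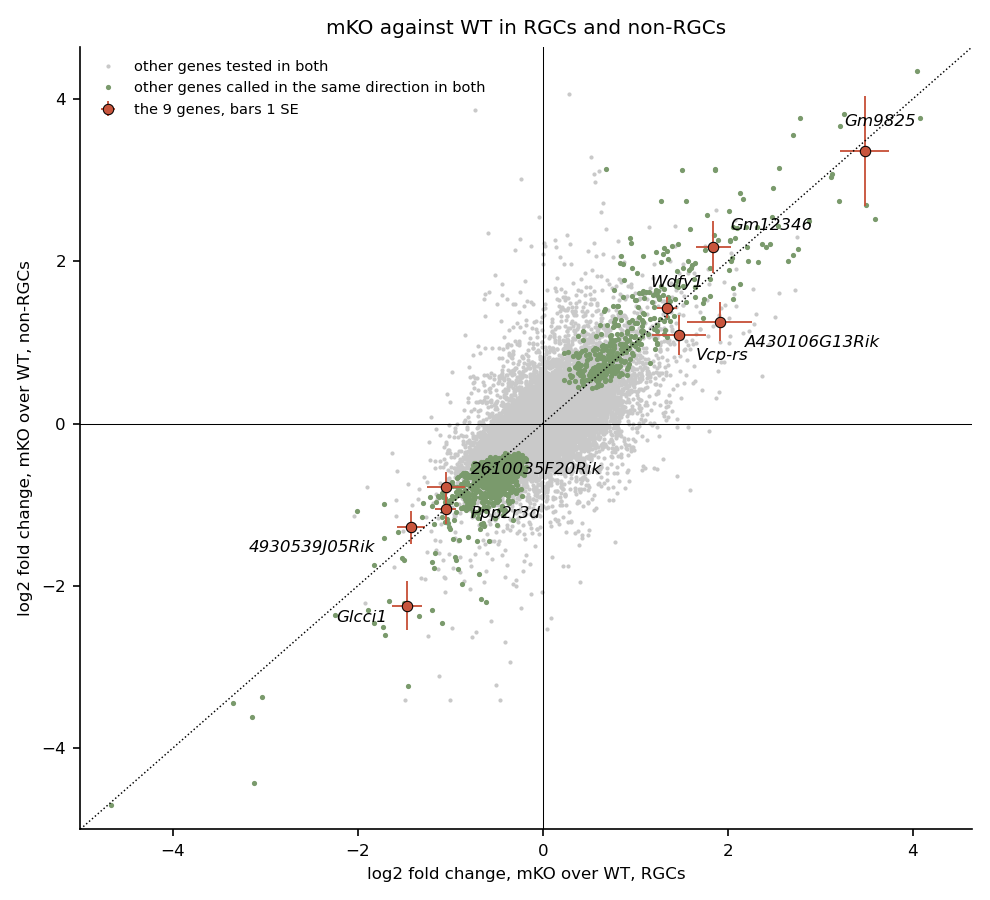
Log2 fold change of mKO over WT in RGCs (x axis) and non-RGCs (y axis) for the 14894 genes tested in both, with the 9 genes in red (bars, 1 SE), the genes called in the same direction in both in green and a dotted line where the values are equal. The 9 genes lie near the dotted line by choice, from Glcci1 at -1.47 and -2.24 to Gm9825 at 3.48 and 3.36.

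Ranked by the smaller of the 2 absolute log2 fold changes among the 1168 genes, Gm9825 came 4th, Gm12346 51st and Glcci1 85th, and the others between 99th and 307th. Of the 10 further genes that rank highest with a mean of at least 10 in every group, 8 were higher in mKO mice. They include Gm15487 and Gm6368, which are processed pseudogenes, and Gabra2, the gene of a GABA receptor subunit (1.62 in RGCs, adjusted p = 0.00272, and 1.95 in non-RGCs, adjusted p = 0.00858). The others that were higher are Gm26981, Gm13251, Gm7110, 2610305D13Rik and Gm13139, with log2 fold changes from 1.64 to 2.06 in RGCs. Adnp, the gene of a neuroprotective homeobox protein (-1.83, adjusted p = 0.000644, and -2.46, adjusted p = 0.00324), and Galnt2, the gene of an enzyme that starts O-linked glycans (-1.67, adjusted p = 0.00108, and -2.19, adjusted p = 0.0257), were lower. With the GC trend removed Adnp and Gabra2 kept both calls. Galnt2 (adjusted p = 0.0825), Gm15487 (0.0697), Gm13251 (0.0564), 2610305D13Rik (0.0824) and Gm6368 (0.0613) were no longer called in non-RGCs. Gm26981 lost its call in RGCs (adjusted p = 0.057). Gm13139 lost both calls (adjusted p = 0.0693 in RGCs and 0.0824 in non-RGCs). Gm7110 had no match in the annotation and so no such fit.

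Whether the 9 genes differ between RGCs and non-RGCs within a genotype was not itself used in choosing them and was tested with limma over all 12 libraries. The change of this difference from WT to mKO mice was bounded by the choice, which asked for like shifts in both fractions. WT and mKO mice are therefore not independent here, and nothing is read from their likeness. In WT mice 3 of the 9 genes differed, all of them lower in RGCs than in non-RGCs. Of all 15742 genes tested 50.8% differed, 27.2% higher and 23.7% lower in RGCs. 2610035F20Rik had a log2 fold change of RGCs over non-RGCs of -0.87 ± 0.19 (adjusted p = 0.00224, limma), with means of 192 ± 51.2 and 346 ± 48.1 normalized reads (SD). A430106G13Rik had -0.91 ± 0.31 (adjusted p = 0.0266), and Glcci1 had -0.77 ± 0.27 (adjusted p = 0.0302). In mKO mice, where 55% of 16330 genes differed (29.2% higher and 25.8% lower in RGCs), 2610035F20Rik was lower in RGCs, with a log2 fold change of -1.14 ± 0.19 (adjusted p = 0.000322), with means of 91.4 ± 1.95 against 204 ± 28.9. Scaling by total reads turned the split of all genes there from 4775 higher and 4208 lower to 4210 and 5671. No other of the 9 genes was called in mKO mice, and Gm12346 came closest with -0.66 ± 0.27 (adjusted p = 0.0541).

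For the genes that were not called between fractions, the intervals of 2 SE on each side differ in width. That of Wdfy1 was -0.04 to 0.45 in WT and -0.12 to 0.37 in mKO mice, and that of Ppp2r3d -0.43 to 0.13 and -0.43 to 0.14, so a 2-fold difference in either direction lies outside them. 4930539J05Rik had -0.44 to 0.24 in WT and -0.59 to 0.10 in mKO mice. The interval of Gm9825 was the widest, -1.84 to 0.56 in WT mice, and holds 2-fold changes in the lower direction. Vcp-rs had -0.88 to 0.17 in WT and -0.50 to 0.55 in mKO mice, and Gm12346 -0.86 to 0.22 and -1.19 to -0.12. In mKO mice the interval was -0.54 to 0.54 for Glcci1 and -0.89 to 0.37 for A430106G13Rik. Leaving out 1 library changed some of these calls. Glcci1 in WT mice was no longer called in 4 of the 6 fits that leave out a WT library, with adjusted p-values between 0.051 and 0.12. A430106G13Rik lost its call in 4 of these 6 and with voom weights or the GC trend removed, with adjusted p-values between 0.0524 and 0.0932. Wdfy1 was higher in WT RGCs without the shallowest WT RGC library (0.35, adjusted p = 0.0102). Gm9825 was lower in WT RGCs without the deepest WT non-RGC library (-1.57, adjusted p = 0.00329) and turned to 0.09 without the second deepest. 2610035F20Rik was lower in RGCs in both genotypes under every alternative run.

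**Figure D3:**
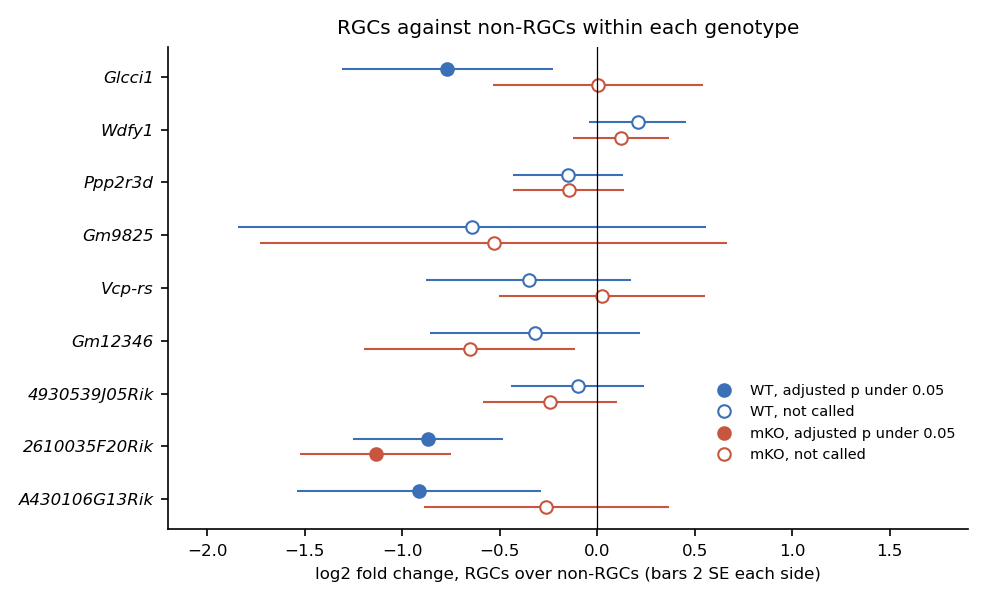
Log2 fold change of RGCs over non-RGCs (x axis) for each of the 9 genes in WT (blue) and mKO (red) mice, with 2 SE on each side. Filled points have an adjusted p-value under 0.05. 2610035F20Rik is at -0.87 in WT and -1.14 in mKO mice, and Glcci1 is at -0.77 in WT and 0.00 in mKO mice. WT and mKO points of a gene lie near each other in part by the choice of the genes.

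The parent genes of the 3 copies were not called higher in either fraction. In RGCs Rnps1 was lower in mKO mice (-0.57 ± 0.06, adjusted p = 0.000979, limma), as were Vcp (-0.35 ± 0.05, adjusted p = 0.00291) and Hsp90aa1 (-0.32 ± 0.06, adjusted p = 0.00505), and all 3 kept that call when scaled by total reads and with the GC trend removed. In non-RGCs none of the 3 passed the test, with -0.42 for Rnps1 (adjusted p = 0.11), -0.25 for Vcp (adjusted p = 0.30) and 0.04 for Hsp90aa1 (adjusted p = 0.91). The share of the reads of copy and parent that were counted at the copy shows the shift within a library, apart from any scaling. Gm9825 took 0.98% ± 0.23 (SD, n = 3) of the reads of Gm9825 and Rnps1 in WT RGCs and 14.9% ± 1.51 in mKO RGCs. In non-RGCs its share was 2.16% ± 2.00 in WT and 18.2% ± 0.77 in mKO mice. The share of Vcp-rs was 1.91% ± 0.57 in WT and 6.46% ± 1.26 in mKO RGCs, and 2.40% ± 0.32 and 5.97% ± 0.54 in non-RGCs. That of Gm12346 was 1.07% ± 0.09 and 4.76% ± 0.16 in RGCs, and 1.35% ± 0.29 and 5.80% ± 0.67 in non-RGCs. These shares rest on the contrast that chose the genes and are a description. Whether reads of the parent were counted at the copy was not tested.

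**Figure D4:**
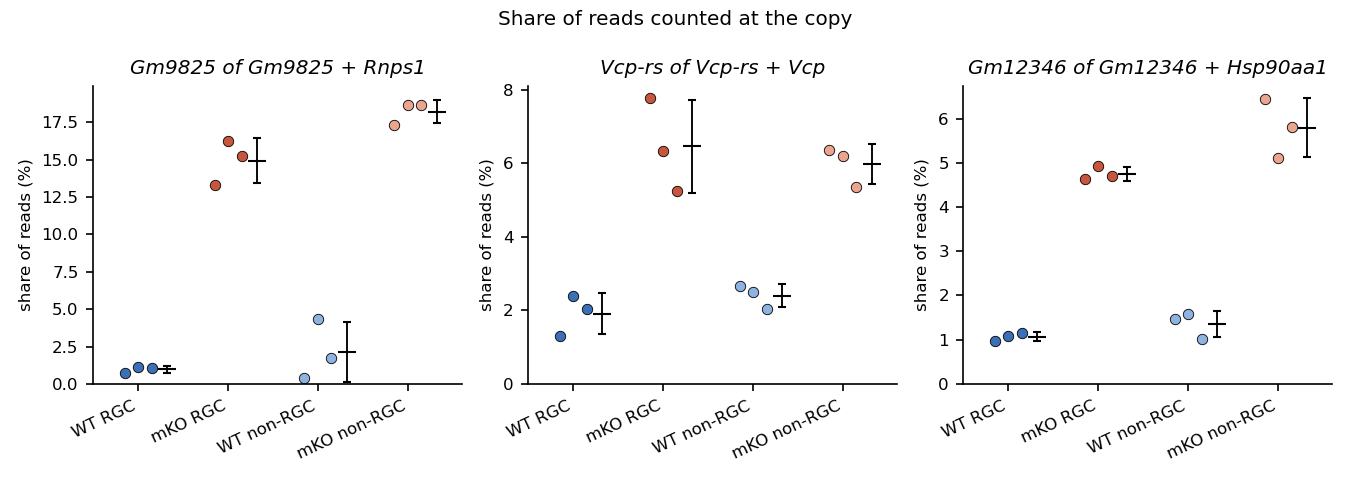
Share of reads (y axis, percent, from 0) counted at each copy out of the reads of the copy and its parent gene together, in each of the 12 libraries (points), with the mean ± SD of the 3 libraries of a group. For all 3 copies the 6 mKO libraries lie above the 6 WT libraries, and for Gm9825 the mKO libraries lie between 13.3% and 18.7%.

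Other processed pseudogenes were also more often higher than lower in mKO mice. Of the 211 tested in both fractions besides Gm9825 and Vcp-rs, 78 were higher and 4 lower in RGCs, with a median log2 fold change of 0.75, and 46 were higher and 1 lower in non-RGCs, with a median of 0.78. Over all genes 16.3% were higher and 21.2% lower in RGCs, and 4.18% were higher and 6.43% lower in non-RGCs. Scaled by total reads, these counts turned from 2622 higher and 3405 lower to 3857 and 2238 in RGCs, and from 641 and 985 to 1346 and 448 in non-RGCs. With the GC trend removed, 50 of these pseudogenes were higher and 2 lower in RGCs, and 14 were higher in non-RGCs. In both fractions 35 were called higher. Of 34 transcribed processed pseudogenes besides Gm12346, 7 were higher and 1 lower in RGCs and 5 were higher in non-RGCs. Among long intergenic non-coding RNAs other than A430106G13Rik, 68 of 257 were higher and 8 lower in RGCs, and 24 were higher and 1 lower in non-RGCs. With the GC trend removed these fell to 18 and 3 in RGCs and to 6 and 0 in non-RGCs. The transcribed processed pseudogenes that were higher then fell to 3 in RGCs and 1 in non-RGCs. Of 287 antisense RNAs other than 4930539J05Rik, 45 were higher and 11 lower in RGCs (17 and 1 with the GC trend removed). In non-RGCs the split of the antisense RNAs was more even, with 15 higher and 10 lower (3 and 3 with the GC trend removed). Of 182 processed transcripts other than 2610035F20Rik, 45 were higher and 6 lower in RGCs (17 and 2 with the GC trend removed). In non-RGCs 10 of them were higher and 2 lower (3 and 0 with the GC trend removed). 4930539J05Rik and 2610035F20Rik themselves were lower. The processed pseudogene Gm5844, a further copy of Hsp90aa1 on chromosome 3, was singled out after its values were seen. Its log2 fold change was 2.10 in RGCs (adjusted p = 0.00306) and 2.41 in non-RGCs (adjusted p = 0.00938), beside 1.84 ± 0.19 and 2.18 ± 0.32 for Gm12346.

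Genes that overlap or flank the 9 genes were compared to see whether a difference was shared along the chromosome. Of 102 other tested genes within 1 Mb of any of the 9, 28 were higher and 12 lower in mKO RGCs, which is 39.2% called against 37.5% over all genes, and 7 were higher and 7 lower in non-RGCs, which is 13.7% against 10.6%. Of the 102 genes, 4 were higher and 5 lower in both fractions, where 2.69% and 5.15% of all genes tested in both were. No tested gene within 1 Mb of Glcci1, Wdfy1, Ppp2r3d, Gm9825, 4930539J05Rik or 2610035F20Rik was called in the same direction in both fractions. Each of these 6 genes had only 7 to 11 tested neighbours, so little is read from that. Near Vcp-rs, 5530601H04Rik was higher and Magee1 lower in both. Ssh2, around Gm12346, had 0.37 in RGCs (adjusted p = 0.0713) and -0.22 in non-RGCs (adjusted p = 0.37). Within 1 Mb of Gm12346, Ccdc55 and Gm10277 were higher in both fractions and Ankrd13b, Git1, Sez6 and Phf12 lower. Of these neighbours of Vcp-rs and Gm12346, Gm10277 kept both calls with the GC trend removed (adjusted p = 0.0444 in RGCs and 0.0393 in non-RGCs), and the others lost at least the call in non-RGCs. Among the nearest tested neighbours, Ap1s3 (by Wdfy1), 2010315B03Rik (Ppp2r3d), C1galt1 and Mios (Gm9825), C77370 (Vcp-rs) and Efcab5 (Gm12346) were called higher in mKO RGCs only. With the GC trend removed C77370 and Efcab5 kept that call and the rest lost it.

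A430106G13Rik lies within the bounds of Gm4258 on the same strand, without shared exon bases. Gm4258 had 0.44 in RGCs (adjusted p = 0.24) and 0.0084 in non-RGCs (adjusted p = 0.99). A130050O07Rik, nearby, was higher in both fractions (2.45 in RGCs, adjusted p = 0.0221, and 2.22 in non-RGCs, adjusted p = 0.0308), and both calls were lost with the GC trend removed (adjusted p = 0.0715 and 0.0783). It passed the filter of 10 only through its mKO level, with WT means of 3.34 normalized reads in RGCs and 3.95 in non-RGCs. Its mKO means were 24.4 ± 17.2 and 22.9 ± 13.2 (SD). The nearest tested gene that does not overlap A430106G13Rik, Gm26930, had 1.34 in RGCs (adjusted p = 0.16) and was higher in non-RGCs (1.46, adjusted p = 0.0426), a call lost with the GC trend removed (adjusted p = 0.0955). Ube2d3, which shares bases with 4930539J05Rik, had -0.21 in RGCs (adjusted p = 0.0549) and -0.09 in non-RGCs (adjusted p = 0.70). Beside 2610035F20Rik, Zic2 was lower in mKO non-RGCs (-0.60, adjusted p = 0.0265) and had -0.45 in RGCs (adjusted p = 0.10), and the non-RGC call was lost with the GC trend removed (adjusted p = 0.44). Like 2610035F20Rik, Zic2 and Zic5 were lower in RGCs than in non-RGCs, with log2 fold changes of -1.0 and -1.36 in WT mice (adjusted p = 0.000237 and 0.000155) and of -0.85 and -1.15 in mKO mice (adjusted p = 0.000721 and 0.000537). Glcci1 and Gm9825 lie 526 kb apart on chromosome 6 and moved in opposite directions. The 3 tested genes that lie wholly between them, Mios, Rpa3 and Gm16039, had log2 fold changes between 0.20 and 0.39 in RGCs. Ezh2 itself is on the same chromosome, 38.9 Mb from Glcci1. Ezh2 had 0.09 ± 0.13 in RGCs (adjusted p = 0.64) and 0.13 ± 0.15 in non-RGCs (adjusted p = 0.58), which counts the whole gene and does not check the loss of the floxed exons.

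**Figure D5:**
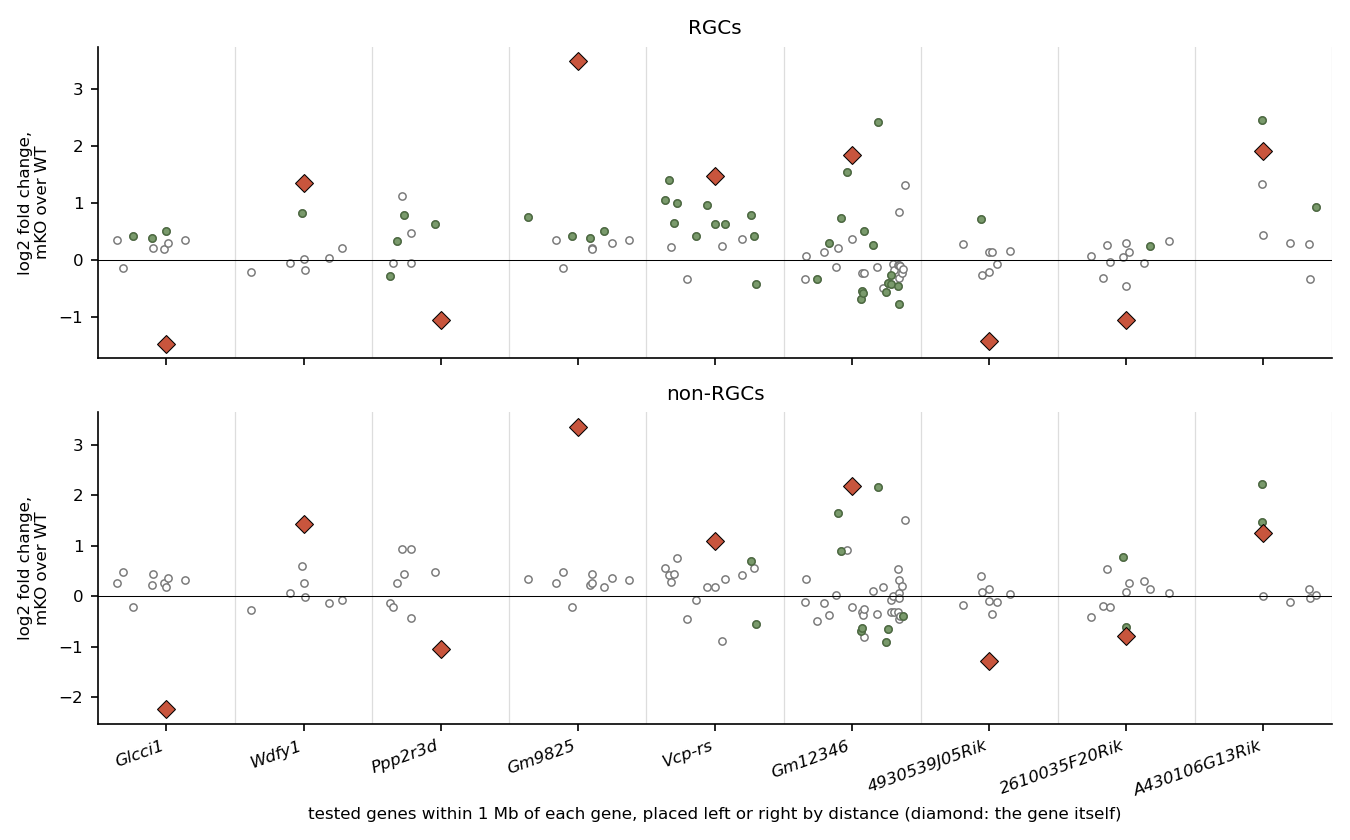
Log2 fold change of mKO over WT (y axis) in RGCs (top) and non-RGCs (bottom) for each of the 9 genes (red diamonds) and for the tested genes within 1 Mb of it (circles, placed left or right by distance, filled where the adjusted p-value is under 0.05). Around Glcci1 and Gm9825 the neighbours lie between -0.22 and 0.75 in both fractions, while near A430106G13Rik the gene A130050O07Rik lies at 2.45 and 2.22.

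Genes that work with the protein-coding members or with the parents of the copies were counted from lists. Of 20 PP2A subunits and relatives, 10 were lower and 3 higher in mKO RGCs, with a median log2 fold change of -0.18, where 21.2% of all genes were lower and 16.3% higher. Ppp2r1a, the main scaffold subunit (-0.67, adjusted p = 0.000644), and Ppp2r5b (-0.60, adjusted p = 0.000924) fell most, and Ppp2r3a, a paralogue of Ppp2r3d (0.68, adjusted p = 0.00416), and the scaffold Ppp2r1b (0.34, adjusted p = 0.00955) rose most. With the GC trend removed 6 were lower and 1 higher, and the calls of Ppp2r5b (adjusted p = 0.21) and Ppp2r3a (adjusted p = 0.0901) were lost. In non-RGCs 1 was lower and limma called none higher (2 at an unadjusted p-value under 0.05, and none with voom weights), but scaled by total reads 3 were higher and the lower call was lost, and with the GC trend removed no call was left. Among 26 cofactors of Vcp, itself included, 9 were higher and 8 lower in mKO RGCs and 1 was higher and 1 lower in non-RGCs. Yod1, a deubiquitinase (0.93, adjusted p = 0.00278), and Vcpip1 (0.61, adjusted p = 0.00152) rose most in RGCs. Ubxn1 (-0.45) and Aspscr1 (-0.44) fell most. With the GC trend removed 5 were lower and all 9 higher calls were lost, those of Yod1 (adjusted p = 0.0548) and Vcpip1 (adjusted p = 0.19) included, as were both calls in non-RGCs.

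Of 27 genes of FYVE proteins and endosomal phosphatidylinositol 3-phosphate, 8 were higher and 2 lower in mKO RGCs, and with the GC trend removed 3 were higher and 1 lower. Zfyve16 (0.70, adjusted p = 0.0017) and Eea1, a tether of early endosomes (0.62, adjusted p = 0.000913), rose most. Hgs, which sorts ubiquitinated cargo (-0.56, adjusted p = 0.000651), and Fgd1 (-0.51, adjusted p = 0.00155) fell. Of these 4 genes Eea1 kept its call with the GC trend removed (adjusted p = 0.0302). Hgs (-0.50) and Fgd1 (-0.89) were also the 2 genes that were lower among the 26 tested in non-RGCs, and both calls were lost there with the GC trend removed (adjusted p = 0.38 and 0.0955). The relatives of Wdfy1 were not called in either fraction, with 0.04 and -0.93 for Wdfy2, -0.03 and -0.66 for Wdfy3, and -0.14 for Wdfy4 in RGCs. Of 12 genes of Toll-like receptor 3 and 4 signalling tested in RGCs, 3 were higher, with Tlr3 itself at 1.26 (adjusted p = 0.0121) and Ripk1 at 0.52 (adjusted p = 0.0178), and Rela was lower (-0.55, adjusted p = 0.00875). All 4 calls were lost with the GC trend removed. In non-RGCs limma called 0 of 11, with 3 at an unadjusted p-value under 0.05 and 0 with voom weights.

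Of 17 genes that respond to glucocorticoids or are related to Glcci1, 5 were lower in mKO RGCs. Ddit4 (-0.55, adjusted p = 0.0017) and the phosphatase gene Dusp1 (-0.51, adjusted p = 0.00594) fell most. Limma called none higher, with 3 at an unadjusted p-value under 0.05 and 1 with voom weights, but scaled by total reads 3 were higher and 3 lower. With the GC trend removed 1 was lower, and the calls of Ddit4 (adjusted p = 0.19) and Dusp1 (adjusted p = 0.0771) were lost. In non-RGCs Sgk1, a kinase gene, was higher (0.87, adjusted p = 0.0306) and Fam117b, a relative of Glcci1, lower (-0.43, adjusted p = 0.0347). Both calls were lost with the GC trend removed (adjusted p = 0.0672 for Sgk1 and 0.065 for Fam117b), and that of Fam117b also when scaled by total reads (adjusted p = 0.12). The medians of the 5 lists lay between -0.19 and 0.13 in the 2 fractions, and scaling by total reads raised the median of all genes from -0.00 to 0.12 in RGCs and from -0.03 to 0.15 in non-RGCs, which turned the sign of the median of the Vcp cofactor list and of the FYVE list in both fractions and of the glucocorticoid list in non-RGCs. Removing the GC trend turned that of the FYVE list in RGCs (0.10) and of the glucocorticoid list in non-RGCs (0.03).

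Several features of the libraries moved with genotype, and their part in the differences of the 9 genes was not tested. By falling depth, mKO RGC libraries had reads on 22732, 22732 and 23492 genes, and WT RGC libraries on 21211, 21189 and 20695. For non-RGCs the numbers were 22528, 21921 and 20511 (mKO) against 20712, 20622 and 20072 (WT). The mKO library with 20511 was the shallowest of all, at 7139633 reads, and lay within the WT range. All 10 RGC markers were higher in RGCs than in non-RGCs in both genotypes, with a median log2 fold change of 3.46 in WT and 1.61 in mKO mice. Between genotypes they moved in opposite directions, with 9 of 10 lower in mKO RGCs (median -0.52) and 6 of 10 higher in mKO non-RGCs (median 0.99). With the GC trend removed 8 of these markers were lower in mKO RGCs and 4 higher in mKO non-RGCs. Photoreceptor markers were lower in both fractions (4 of 5 in RGCs, median -0.80, and 3 of 5 in non-RGCs, median -0.57), as were amacrine and horizontal cell markers (3 of 5, median -0.49, and 2 of 5, median -0.48), and the non-RGC calls of both lists were lost with the GC trend removed. The summed level of 4 kidney markers lay between 46.7 and 71.8 normalized reads in WT RGCs and 54.9 and 57.6 in WT non-RGCs, against 0.91 to 1.80 in mKO RGCs and 0.00 to 1.97 in mKO non-RGCs, with Aqp2 at 0 in both mKO groups. The 3 of them tested in RGCs and the 2 tested in non-RGCs were all called lower in mKO mice. That of 3 blood markers, all 3 called higher, ran from 45.0 to 59.6 in WT and from 121 to 176 in mKO RGCs, and in non-RGCs from 47.5 to 99.6 in WT and from 306 to 452 in mKO mice. Fold changes of mKO over WT fell with the GC content of the exons, with Spearman's rho of -0.71 across 12798 genes in RGCs and -0.51 across 12232 in non-RGCs, and genes are not independent replicates. The GC content of the 9 genes ran from 37.0% in A430106G13Rik to 55.6% in Gm9825. With the GC trend removed all 9 kept their direction, and the log2 fold change of A430106G13Rik became 1.40 in RGCs and 0.91 in non-RGCs, and that of Gm9825 3.80 and 3.602.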

How the data were processed

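Poly-A RNA-seq libraries of RGCs and non-RGCs from P0 mKO and WT retinas (3 per group, grouped by their labels) were sequenced from a single end. The authors aligned reads to mm10 with STAR (2.3.1z4 in the submitters' processing notes), counted them per gene with featureCounts, kept primary alignments without duplicates and normalized them with DESeq. The deposited signal is the mean of the normalized counts of 3 libraries, in a separate table for each fraction. The deposited tables also hold the authors' fold changes and p-values, which were not used. Columns of per-sample values not used numbered 0.

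The reads of each library were recovered from the digits of the means, with 1 combination of whole numbers for 100% of genes with reads in 3 groups and all but 5 genes in WT non-RGCs, where the combination with the libraries closest to each other was kept. Recovered libraries carry no replicate number. They are separate RNA extractions, and the sources do not tie them to animals, so p-values measure the spread between these extractions. The total per library was 7139633 to 13014004 reads, and intervals cover the spread between libraries only.

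Reads were divided by the authors' size factors within a fraction, or by median-of-ratios factors over all 12 libraries, and analysed with limma 3.58.1 in R 4.3.3 (mean-variance trend, log2(value + 1), mean of at least 10 in either group, Benjamini-Hochberg, adjusted p-value under 0.05), which was tested on simulated data. Annotation was GENCODE M21 on GRCm38, where 26905 of 27570 genes with reads matched, and copies were aligned with BLAST 2.17.0. The 9 genes, the lists and the tests were chosen with earlier results of these data known. Named besides the 9 were their parents and paralogues, Ezh2, nearest and alike neighbours, 10 genes with the largest like change, and at most 4 called genes a list. Ppp2r3b was not analysed here and 1 other gene is not reported here. Alternatives were a pseudocount of 0.5, no filter or a mean of at least 50, scaling by total reads, removal of each library's trend with GC content, voom weights, a fold change of at least 1.5, and leaving out each library.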

Additional observations from a re-analysis of the deposited data

How the results depend on the processing

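The 9 genes kept their direction between mKO and WT mice in both fractions under all alternatives run, and for each fraction 101 of 108 values moved by less than the spread between libraries. The count of genes called in RGCs was 6027 (2622 higher, 3405 lower), and 2339 (865 and 1474) with the GC trend removed, 2158 (1272 and 886) with a fold change of at least 1.5, and 3770 to 8184 without 1 library, with 3770 without the shallowest and 3822 without the deepest mKO library. In non-RGCs it was 1626 (641 higher, 985 lower), and 196 (125 and 71) with the GC trend removed. Without 1 library it was 141 to 1614 in non-RGCs, with 141 without the second deepest mKO library, 387 without the second deepest WT library and 819 without the deepest WT library. Scaling by total reads gave 3857 higher and 2238 lower in RGCs and 1346 higher and 448 lower in non-RGCs. The cause of these changes was not tested.

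Between the fractions the counts of 8002 genes in WT and 8983 in mKO mice stayed within 1.5 times under all alternatives. Scaling by total reads turned the split in mKO mice from 4775 higher and 4208 lower to 4210 and 5671. Small differences of RGCs over non-RGCs turned direction in 11 fits, with no call in those. In WT mice Gm9825 (-0.64) ranged from -1.57 without the deepest to 0.089 without the second deepest WT non-RGC library, and 4930539J05Rik (-0.10) became 0.046 with the GC trend removed. In mKO mice scaling by total reads gave -0.13 for Glcci1, -0.0084 for Wdfy1 and -0.11 for Vcp-rs. Voom gave -0.081 for Glcci1, and without 1 library Glcci1 ranged from -0.33 to 0.36 and Vcp-rs from -0.11 to 0.16. Gm12346 in mKO mice was called lower in RGCs when scaled by total reads (adjusted p = 0.0275), with voom (0.0262) and without the deepest mKO non-RGC library (0.0485).

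No paired analysis was possible because the recovered libraries carry no replicate numbers. Genes with few reads, such as Gm9825 in WT libraries (4 to 46 reads), are limited by depth.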
